A study of Rattus norvegicus with 9 samples.

Results

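The genes examined here are 10 genes of the YAP and TEAD pathway: the transcriptional coactivator gene Yap1, its DNA-binding partner Tead1, and 8 genes known as targets of the pair, namely Ctgf, Cyr61, Ankrd1, Amotl2, Lats2, Ajuba, Axl and Asap1. They were chosen by name from knowledge of the pathway, with earlier results of these data known. All 10 were found by their symbol among the 19919 genes listed, and all 10 were among the 12513 genes tested. RNA-seq was performed on cardiosphere-derived cells (CDCs), a population of heart cells that grows out of cardiac tissue and forms spheroids. The CDCs came from the hearts of 4-week-old male Sprague Dawley rats, carried the genotype WT and were given no agent other than the culture surface. They were cultured for 3 days on polystyrene (the PS group), on an ultralow attachment surface (the ULA group) or on an octyl hydroxypropyl cellulose ester, which forms a cholesteric liquid crystal (the OPC group). Each group had 3 biological replicates, giving 9 libraries. Whether the cultures of a group came from different animals is not stated, so p-values here reflect only how much these cultures varied.

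In the Hippo pathway, the kinases MST and LATS phosphorylate YAP and its relative TAZ and keep them out of the nucleus. When cells spread on a stiff surface, LATS is less active, YAP and TAZ enter the nucleus, and together with TEAD proteins they switch on genes such as Ctgf and Cyr61. In heart tissue the pathway is known for its part in cardiomyocyte growth, in fibroblast activation and in the response to mechanical load. The level of Yap1 RNA does not show where the YAP protein is in the cell, which RNA-seq does not measure.

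Of the 10 genes, 6 had an entry in the RefSeq table of rat gene starts (build GRCr8, which differs from the rn6 build of the expression table): Yap1, Cyr61, Ctgf, Amotl2, Axl and Ajuba. The window from 250 bases before the start to 50 bases after it was searched on both strands for the letters GGAATG, the core of the motif that TEAD proteins bind, which reads CATTCC when it lies on the other strand. The windows of Ctgf, Cyr61 and Amotl2 are shown because these 3 genes had among the largest changes between substrates and each window holds the motif, in capitals. The Ctgf window lies on the minus strand at chr1:22624565-22624864, that of Cyr61 (listed there as Ccn1) on the minus strand at chr2:237225640-237225939, and that of Amotl2 on the plus strand at chr8:112182376-112182675.
Ctgf: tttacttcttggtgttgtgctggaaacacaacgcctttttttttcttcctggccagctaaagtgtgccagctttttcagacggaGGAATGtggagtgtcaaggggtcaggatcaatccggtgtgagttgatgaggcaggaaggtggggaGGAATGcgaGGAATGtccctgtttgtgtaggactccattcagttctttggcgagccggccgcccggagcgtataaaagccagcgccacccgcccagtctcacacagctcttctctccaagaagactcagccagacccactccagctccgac
Cyr61: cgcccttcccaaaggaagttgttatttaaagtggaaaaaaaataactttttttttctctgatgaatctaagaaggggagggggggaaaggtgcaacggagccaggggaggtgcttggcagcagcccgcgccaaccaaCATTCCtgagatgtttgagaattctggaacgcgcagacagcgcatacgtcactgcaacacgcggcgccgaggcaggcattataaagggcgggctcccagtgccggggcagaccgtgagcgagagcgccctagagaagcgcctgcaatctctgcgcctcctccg
Amotl2: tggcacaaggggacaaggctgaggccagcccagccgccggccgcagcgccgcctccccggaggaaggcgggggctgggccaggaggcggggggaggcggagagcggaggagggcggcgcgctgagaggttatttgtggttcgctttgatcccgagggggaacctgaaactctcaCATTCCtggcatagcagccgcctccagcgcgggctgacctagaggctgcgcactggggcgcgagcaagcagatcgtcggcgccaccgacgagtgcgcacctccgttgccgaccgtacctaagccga

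The Ctgf window held 3 copies, beginning 166, 101 and 92 bases before the start. Cyr61 held 1 copy at 113 bases before the start, Amotl2 1 at 76, Yap1 1 at 116 and Ajuba 1 at 236, and the Axl window held none. The motif was thus found in 5 of the 6 windows, against 14.2% of all 33469 windows in the table, and 3 or more copies were found in 0.0956% of them. The letters TGANTCA, bound by AP-1 factors that often act beside TEAD (any base at N, both strands), were in 0 of the 6 windows and in 7.33% of all windows. The CArG box of the serum response factor SRF was also in 0 of the 6 windows, against 1.64% of all. A match is a stretch of letters and was not tested as a binding site, and a window without a match says only that the letters are not in that window.

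The levels were deposited as 1 value per gene and library. They were read as FPKM, in which fragments are divided by the length of the gene and the size of the library, so that levels can be set beside each other between genes. A library summed to 444736.4 to 460731.7 FPKM, and depth relative to the first PS library was estimated at 0.869 to 1.175, while the absolute depth is unknown and no counting interval can be given. Changes were tested on log2(FPKM + 1), a scale that understates the change of low genes, with limma over all 12513 genes with at least 1 FPKM in at least 3 libraries and Benjamini-Hochberg adjustment. Genes with an adjusted p up to 0.05 are called higher or lower, and a call with a |log2FC| of 1 or more makes a differentially expressed gene (DEG). Most genes were called on these substrates (68.9% in ULA vs PS, 64.4% in OPC vs PS and 54.0% in OPC vs ULA), so the counts of called genes are to be read beside the shares over all genes tested. Cardiomyocyte markers summed to 0.272 to 1.88 FPKM per library over 7 genes, of which 6 were under 1 FPKM in every library, and 4 endothelial markers summed to 0.203 to 0.683 FPKM. Fibroblast markers (7 genes) summed to 6555 to 6985 FPKM on PS, 4024 to 4471 on ULA and 4374 to 4517 on OPC, most of it Col1a1, while Dcn (9.38, 108 and 42.1 FPKM in the means on PS, ULA and OPC), Pdgfra (16.7, 68.5 and 68.9) and Lum (74.1, 193.5 and 151.5) went the opposite way. Smooth muscle and pericyte markers (7 genes) summed to 4609 to 4686, 357.9 to 360.7 and 592 to 663 FPKM. Acta2 and Tagln made up most of that sum on PS, and the pericyte gene Pdgfrb did not follow it (257.8, 273.8 and 436.5 FPKM). Macrophage markers (5 genes) summed to 3.10 to 3.74, 40.3 to 40.7 and 22.1 to 26.3 FPKM, most of it Cd68, a lysosomal protein gene that other cells also use, while Ptprc, Csf1r, Aif1 and Adgre1 were under 1 FPKM in every library. Acta2, Tagln and Cnn1 of the smooth muscle list are also on the list of SRF targets below. The fibroblast, smooth muscle and macrophage sums moved with the substrate, and their part in the results was not tested. In bulk RNA, fewer cells of a type and less RNA per cell cannot be told apart.

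In ULA vs PS, all 10 genes were lower on ULA, where 30.5% of all genes tested were lower. The ranges of the 2 groups did not overlap for any of the 10 genes, as for 32.0% of all genes in that direction. Of the 10 genes, 8 were DEGs that fell, against 7.39% of all genes, and the median log2FC was -2.10 over the 10 genes and 0.06 over all genes. In OPC vs PS, 8 genes were lower (23.9% of all genes), 1 was higher (40.4% of all genes) and Yap1 did not pass the test. The ranges did not overlap for the same 8 genes below PS, against 26.4% of all genes, and above PS for the 1 that rose, against 44.0%, while 6 of the 8 were DEGs, against 6.11%. The median was -1.43 over the 10 genes and 0.11 over all genes. The OPC group exceeded the ULA group for all 10 genes (32.2% of all genes were higher), with ranges apart for all 10 (36.1% of all genes), 5 DEGs (1.81% of all genes) and a median of 1.01. The comparisons share libraries, the PS libraries in the first pair and the OPC or ULA libraries in the others, so they are not independent of each other.

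For 8 of the 10 genes, the ULA libraries were lowest, the OPC libraries between and the PS libraries highest, with no overlap and a call in each of the 3 comparisons. This order held for 7.86% of all genes tested, and the opposite order for 8.42%. The exceptions were Yap1, which varied least between substrates, and Asap1, which was highest on OPC. The size of the fall varied widely among the 8 genes. The ULA mean was 0.571% of the PS mean for Ankrd1, 4.77% for Amotl2, 5.26% for Ctgf and 6.05% for Cyr61, but 19.5% for Ajuba, 22.2% for Lats2, 29.8% for Tead1 and 36.2% for Axl. The OPC mean ranged from 8.40% of the PS mean for Ankrd1 to 61.9% for Axl.

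**Figure D1:**
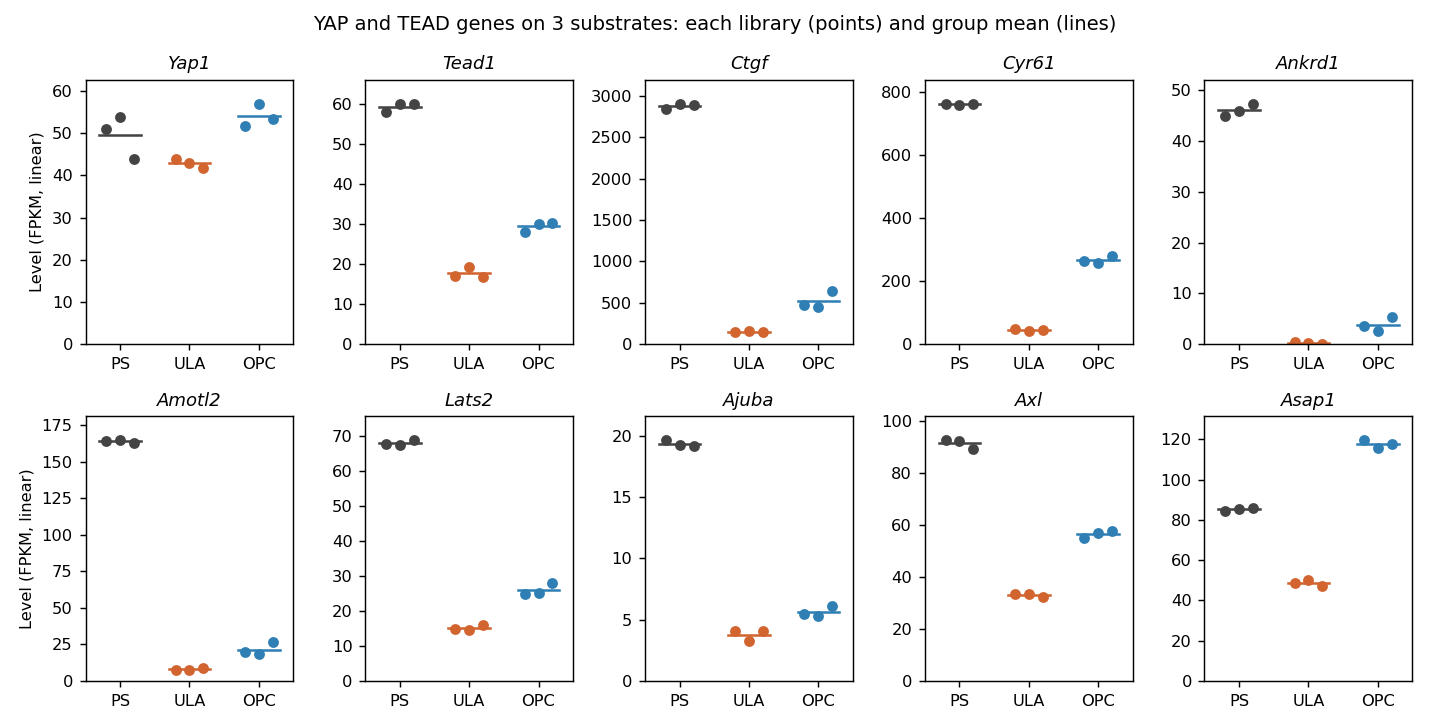
Level of each of the 10 genes (FPKM, linear axis from 0) in the PS, ULA and OPC groups, with a point for each library and a line at the group mean. Ctgf stands near 2879 FPKM on PS, 151.5 on ULA and 523 on OPC, while Yap1 stays between 41.8 and 57.0 FPKM and Asap1 is highest on OPC.

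The plot of levels by substrate shows how tight the replicates were beside most of these differences. Yap1 (chromosome 8 of rn6, 6135493 to 6203579) had 51.0, 54.0 and 44.0 FPKM in the PS libraries, 43.9, 43.0 and 41.8 in the ULA libraries and 51.8, 57.0 and 53.4 in the OPC libraries. The ULA libraries lay just below the lowest PS library, and the OPC libraries overlapped the PS libraries. Its log2FC was -0.20 in ULA vs PS (standard error 0.07, adjusted p = 0.0261 from limma), 0.12 in OPC vs PS (adjusted p = 0.142) and 0.33 in OPC vs ULA (adjusted p = 0.00323). The ULA vs PS call rested on few libraries: without the PS libraries 1 or 2 or the ULA libraries 2 or 3 the adjusted p was 0.0549 to 0.0966. Without the PS library 2, the OPC vs PS difference passed the test (log2FC 0.19, adjusted p = 0.0392 from limma).

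Tead1 (chromosome 1 of rn6, 177495782 to 177707061), which encodes a DNA-binding protein that YAP needs to reach its genes, had 57.9, 60.04 and 60.1 FPKM in the PS libraries. It had 17.1, 19.3 and 16.7 FPKM in the ULA libraries and 28.1, 29.95 and 30.4 in the OPC libraries. The 3 groups were far apart. Tead1 had a log2FC of -1.69 in ULA vs PS (standard error 0.06, adjusted p = 4.98e-09 from limma), -0.99 in OPC vs PS (adjusted p = 2.61e-07) and 0.71 in OPC vs ULA (adjusted p = 6.72e-06). Its span overlaps AABR07005040.2 on the same strand and AABR07005040.1 on the opposite strand, so reads of these genes may be shared.

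The other partners did not move together. Means are given here and below as ± SD over the 3 libraries of a group, in the order PS, ULA and OPC where the substrates are not named. Wwtr1, which encodes TAZ, the relative of YAP, had 44.4 ± 0.471 FPKM (SD, n = 3) on PS, 46.1 ± 1.13 on ULA and 47.3 ± 1.14 on OPC. Its log2FC of 0.09 in OPC vs PS (adjusted p = 0.0421 from limma) became 0.01 (adjusted p = 0.867) after upper-quartile rescaling of the libraries, and the call was also lost when any PS library or the OPC libraries 1 or 2 were left out in turn. Yap1 and Wwtr1 together summed to 94.1 ± 5.35 FPKM on PS, 89.0 ± 0.419 on ULA and 101.3 ± 3.01 on OPC. The TEAD genes moved in both directions. Tead2 had 6.90, 7.97 and 6.20 FPKM in the PS libraries, 10.2, 10.4 and 10.6 in the ULA libraries and 17.2, 15.8 and 13.7 in the OPC libraries. It was thus lowest on PS and highest on OPC, with a log2FC of 0.51 in ULA vs PS (adjusted p = 8.55e-04 from limma) and 1.05 in OPC vs PS (adjusted p = 7.53e-06). Tead3 fell from 13.5 ± 0.167 to 8.67 ± 0.0234 on ULA and 8.32 ± 0.450 on OPC. Tead4 had 6.97 ± 0.371, 6.39 ± 0.288 and 5.76 ± 0.429 FPKM, and passed the test in OPC vs PS alone (log2FC -0.24, adjusted p = 0.0112 from limma).

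On the per-length scale, Tead1 made up 68.3 ± 0.862% of the summed TEAD level on PS, 40.9 ± 2.09% on ULA and 49.9 ± 2.25% on OPC, with no overlap between groups. Tead2 made up 8.08 ± 0.934%, 24.1 ± 0.792% and 26.3 ± 2.86%. The summed TEAD level itself was 86.9 ± 1.41, 43.2 ± 1.16 and 59.1 ± 1.49 FPKM. VGLL proteins bind TEAD in place of YAP, and their genes also split. Vgll3 had 245.1, 235.8 and 237.9 FPKM in the PS libraries, 3.61, 4.32 and 4.46 in the ULA libraries and 21.9, 21.0 and 35.1 in the OPC libraries. Its 3 groups were far apart, with a log2FC of -5.56 in ULA vs PS (adjusted p = 2.55e-09 from limma) and -3.19 in OPC vs PS (adjusted p = 1.35e-07). Vgll4, whose product represses TEAD in other systems, rose from 18.6 ± 1.32 FPKM to 34.1 ± 3.49 on ULA and 34.4 ± 2.46 on OPC. Vgll2 was near 0 in every library and was not tested. Over the 8 tested genes of Yap1, Wwtr1, TEAD and VGLL, 2 rose, 4 fell and 2 did not pass in ULA vs PS, 3 rose, 4 fell and 1 did not pass in OPC vs PS, and 4 rose and 4 did not pass in OPC vs ULA. Over all genes tested, 38.4% were higher and 30.5% lower in ULA vs PS, 40.4% and 23.9% in OPC vs PS, and 32.2% and 21.7% in OPC vs ULA.

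**Figure D2:**
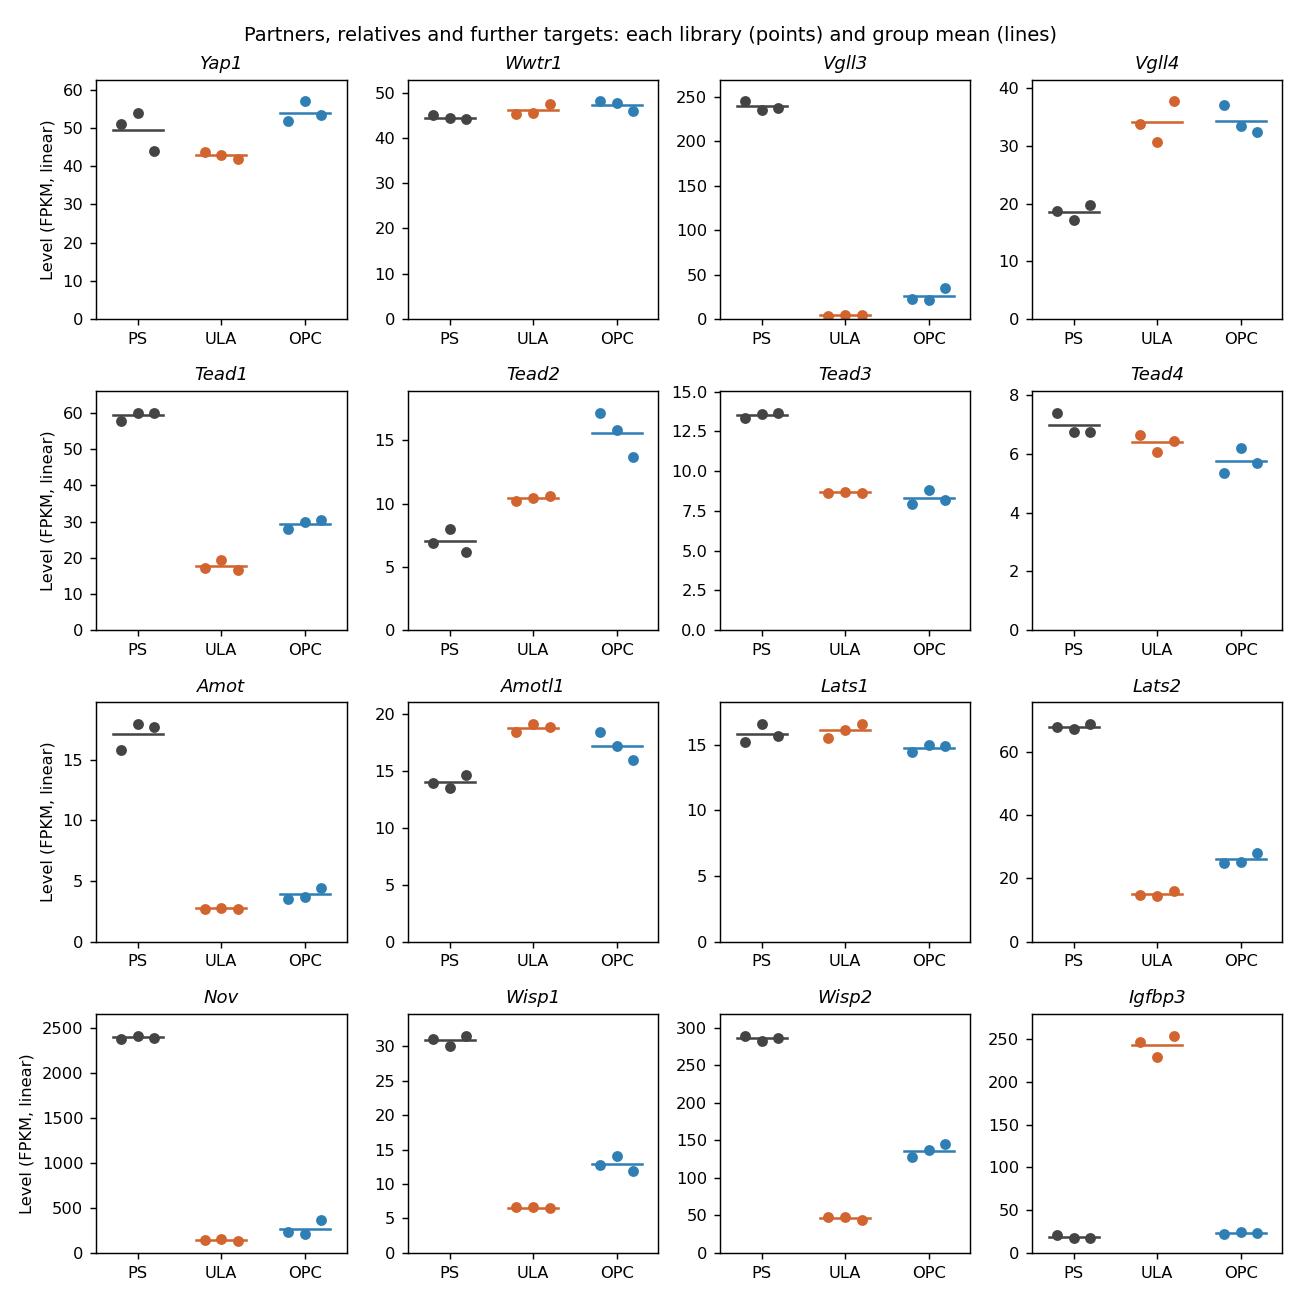
Levels (FPKM, linear axis from 0) of pathway partners, relatives of the 10 genes and further targets in the 9 libraries, with a point per library and a line at the group mean. Wwtr1 and Lats1 vary little while Tead2, Vgll4 and Amotl1 are higher on ULA and OPC, the mean of Vgll3 falls 58.0 times and that of Nov 16.4 times on ULA, and Igfbp3 is high on ULA only (243 FPKM against 18.8 on PS and 23.1 on OPC).

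The plot of partners and relatives sets these genes beside relatives of the targets, which are described below. The best known targets are the secreted matricellular proteins of the CCN family. Ctgf (chromosome 1 of rn6, 21851660 to 21854773), which encodes connective tissue growth factor, had 2846, 2906 and 2886 FPKM in the PS libraries. It had 146, 158 and 150.1 FPKM in the ULA libraries and 469, 453 and 648 in the OPC libraries. No groups overlapped, and the third OPC library stood above the other OPC libraries. Ctgf had a log2FC of -4.24 in ULA vs PS (standard error 0.11, adjusted p = 1.54e-09 from limma), a fall of 19.0 times in the group means, and of -2.48 in OPC vs PS (adjusted p = 6.99e-08). In OPC vs ULA it rose by 1.76 (adjusted p = 2.13e-06 from limma).

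Cyr61 (chromosome 2 of rn6, 251529354 to 251532312), whose product binds integrins and promotes adhesion, had 764, 759.9 and 763 FPKM in the PS libraries. The ULA libraries had 49.0, 43.0 and 46.5 FPKM and the OPC libraries 264, 258 and 281. The groups were separate and the OPC libraries were close to each other. Its log2FC was -4.02 in ULA vs PS (standard error 0.05, adjusted p = 4.47e-11 from limma), -1.51 in OPC vs PS (adjusted p = 7.48e-09) and 2.51 in OPC vs ULA (adjusted p = 2.82e-09). Ctgf and Cyr61 thus had similar log2FCs in ULA vs PS, while the OPC means were 35.1% of the PS mean for Cyr61 and 18.2% for Ctgf. The ratio of Cyr61 to Ctgf was 0.265 ± 0.00345 on PS, 0.306 ± 0.0321 on ULA and 0.522 ± 0.0770 on OPC, and every OPC library (0.433 to 0.570) lay above every ULA library (0.271 to 0.335).

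Of the 6 genes of the CCN family, 5 were tested, and all 5 were lower in ULA vs PS (30.5% of all genes), lower in OPC vs PS (23.9%) and higher in OPC vs ULA (32.2%). Nov fell from 2397 ± 19.1 FPKM to 146.0 ± 8.35 on ULA and 271 ± 84.4 on OPC. Wisp1 had 30.9 ± 0.789, 6.59 ± 0.0846 and 12.9 ± 1.08 FPKM, and Wisp2 had 285.8 ± 3.92, 46.8 ± 2.32 and 136 ± 8.56. Nov was thus the CCN gene nearest to Ctgf in level. Wisp3 was under 1 FPKM in every library and was not tested.

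Ankrd1 (chromosome 1 of rn6, 254726969 to 254735548) encodes a stretch-responsive ankyrin repeat protein of the sarcomere and nucleus. It had 44.9, 46.0 and 47.4 FPKM in the PS libraries, 0.483, 0.177 and 0.130 in the ULA libraries and 3.50, 2.69 and 5.43 in the OPC libraries. All ULA libraries were under 1 FPKM, so the gene passed the filter through the other groups, and the size of its fall depends on the pseudocount. Its place among the genes and DEGs lower in ULA vs PS or higher in OPC vs ULA is thus no support for those counts. The same holds for its place among the genes with ULA lowest, OPC between and PS highest. The log2FC in ULA vs PS was -5.23 (standard error 0.18, adjusted p = 7.67e-09 from limma) and -7.11 with a pseudocount of 0.1. It was -3.31 in OPC vs PS (adjusted p = 2.37e-07) and 1.92 in OPC vs ULA (adjusted p = 2.33e-05), which became -3.60 and 3.52 with a pseudocount of 0.1. Its relatives Ankrd2 and Ankrd23 had group means under 1 FPKM and were not tested.

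A further group of targets acts back on the pathway. Amotl2 (chromosome 8 of rn6, 111209908 to 111226226) encodes an angiomotin that holds YAP at junctions and at actin. Its levels were 164, 165 and 163 FPKM in the PS libraries, 7.53, 7.28 and 8.67 in the ULA libraries and 19.7, 18.2 and 26.3 in the OPC libraries. The ULA and OPC libraries were far below the PS libraries and did not overlap each other. The log2FC of Amotl2 was -4.23 in ULA vs PS (standard error 0.12, adjusted p = 1.67e-09 from limma), -2.90 in OPC vs PS (adjusted p = 2.73e-08) and 1.33 in OPC vs ULA (adjusted p = 1.28e-05). Amot, another angiomotin, fell from 17.1 ± 1.15 FPKM to 2.73 ± 0.0472 on ULA and 3.88 ± 0.451 on OPC. Amotl1 moved the other way, from 14.0 ± 0.559 to 18.8 ± 0.363 and 17.2 ± 1.22 FPKM. The ratio of Amotl2 to Amotl1 was 11.7 ± 0.524 on PS, 0.416 ± 0.0399 on ULA and 1.26 ± 0.337 on OPC.

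Lats2 (chromosome 15 of rn6, 37943609 to 37983882) encodes a kinase that phosphorylates YAP and is itself switched on by YAP. It had 67.7, 67.3 and 68.7 FPKM in the PS libraries, 14.9, 14.6 and 15.9 in the ULA libraries and 24.9, 25.3 and 27.9 in the OPC libraries. The groups were separate, with log2FCs of -2.10 in ULA vs PS (standard error 0.05, adjusted p = 8.1e-10 from limma), -1.35 in OPC vs PS (adjusted p = 1.77e-08) and 0.75 in OPC vs ULA (adjusted p = 2.68e-06). Its partner kinase gene Lats1 had 15.8 ± 0.695, 16.1 ± 0.513 and 14.8 ± 0.305 FPKM and passed the test in no comparison, although it was called lower in OPC than in PS after upper-quartile rescaling (log2FC -0.17, adjusted p = 0.00818 from limma) and lower in OPC than in ULA (log2FC -0.18, adjusted p = 0.00689). The ratio of Lats2 to Lats1 was 4.30 ± 0.208 on PS, 0.939 ± 0.0328 on ULA and 1.77 ± 0.0980 on OPC. The related NDR kinase genes both fell in ULA vs PS. Stk38 had 11.9 ± 0.789, 9.44 ± 0.573 and 15.3 ± 1.07 FPKM and rose in OPC vs PS (log2FC 0.33, adjusted p = 0.00215 from limma). Stk38l had 13.5 ± 0.891, 9.02 ± 0.389 and 11.2 ± 0.856 FPKM and fell in OPC vs PS (log2FC -0.25, adjusted p = 0.00933 from limma).

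Ajuba (chromosome 15 of rn6, 33208216 to 33218456) encodes a LIM protein that binds and restrains LATS at junctions. It had 19.6, 19.3 and 19.2 FPKM in the PS libraries, 4.07, 3.23 and 4.03 in the ULA libraries and 5.49, 5.27 and 6.08 in the OPC libraries. The OPC libraries were close above the ULA libraries and far below the PS libraries. Ajuba had a log2FC of -2.09 in ULA vs PS (standard error 0.08, adjusted p = 1.33e-08 from limma), -1.62 in OPC vs PS (adjusted p = 1.05e-07) and 0.47 in OPC vs ULA (adjusted p = 8.29e-04). Its relative Limd1 had 13.1 ± 0.525, 11.2 ± 0.118 and 12.7 ± 0.242 FPKM, a fall of 0.21 on the log2 scale in ULA vs PS (adjusted p = 0.00188 from limma).

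Axl (chromosome 1 of rn6, 82549420 to 82580761) encodes a receptor tyrosine kinase for the ligand GAS6. It had 92.3, 92.2 and 89.2 FPKM in the PS libraries, 33.6, 33.4 and 32.1 in the ULA libraries and 54.8, 57.0 and 57.6 in the OPC libraries. Of the 8 targets it changed least in OPC vs PS among those that fell. Its log2FC was -1.44 in ULA vs PS (standard error 0.03, adjusted p = 7.76e-10 from limma), -0.68 in OPC vs PS (adjusted p = 1.19e-07) and 0.76 in OPC vs ULA (adjusted p = 2.23e-07). The ligand gene Gas6 had 333.9 ± 6.32, 235 ± 1.91 and 415 ± 11.3 FPKM, and so was lowest on ULA and highest on OPC. Pros1, the gene of the related ligand protein S, rose from 43.3 ± 1.29 to 54.7 ± 2.30 and 64.9 ± 0.614 FPKM. The sister receptor gene Tyro3 had 5.29 ± 0.131, 4.44 ± 0.262 and 6.74 ± 0.655 FPKM, and Mertk was under 1 FPKM in every group and was not tested.

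Asap1 (chromosome 7 of rn6, 104669672 to 104801045) encodes a GTPase-activating protein for Arf proteins that acts in cell migration. It had 84.7, 85.7 and 85.7 FPKM in the PS libraries, 48.7, 49.9 and 47.2 in the ULA libraries and 119.5, 116 and 118 in the OPC libraries. Asap1 alone among the 10 genes rose in OPC vs PS (log2FC 0.46, standard error 0.03, adjusted p = 8.77e-07 from limma). It fell by 0.80 on the log2 scale in ULA vs PS (adjusted p = 1.33e-08) and rose by 1.26 in OPC vs ULA (adjusted p = 8.31e-09). Separate groups with ULA below PS and OPC above PS, called in all 3 comparisons, were found for 2.61% of all genes tested. Its relatives did not fall on ULA. Asap3 rose from 11.9 ± 0.199 FPKM to 16.5 ± 0.539 on ULA and 19.8 ± 0.952 on OPC, and Arf6 from 92.0 ± 1.20 to 110.4 ± 3.77 and 132 ± 6.52. Asap2 had 2.997 ± 0.195, 3.70 ± 0.491 and 3.78 ± 0.240 FPKM, and its calls in ULA vs PS (log2FC 0.23, adjusted p = 0.0469 from limma) and OPC vs PS (log2FC 0.26, adjusted p = 0.0312) were lost under several alternatives, leaving out the PS library 2 among them (adjusted p = 0.141 and 0.101).

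**Figure D3:**
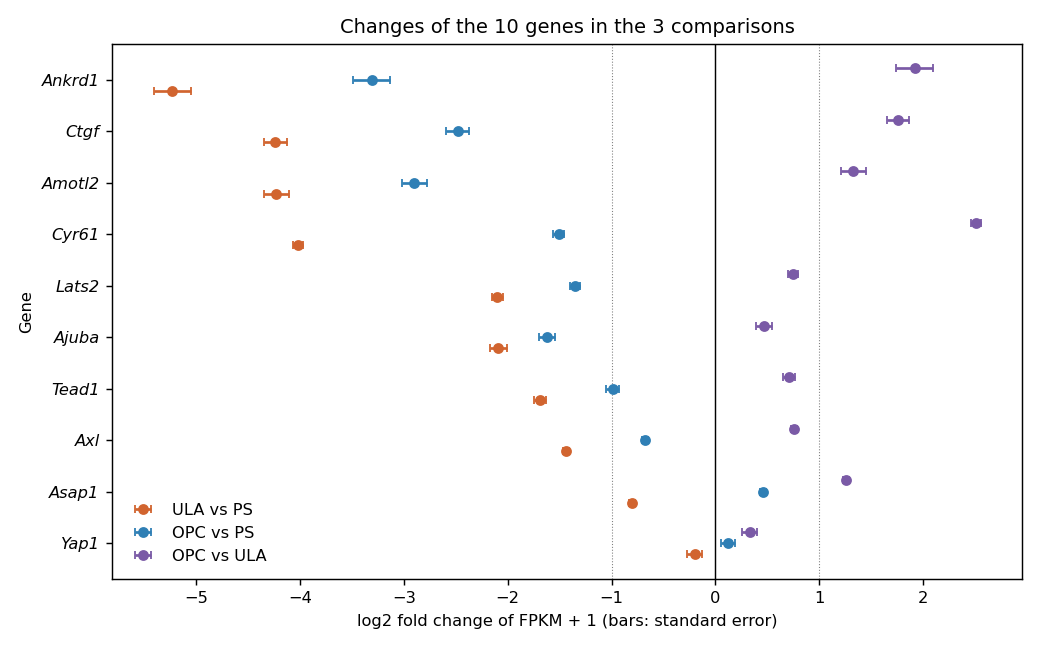
Log2 fold change of FPKM + 1 for each of the 10 genes in ULA vs PS, OPC vs PS and OPC vs ULA, with bars for the standard error and dotted lines at -1 and 1, the fold limits of a DEG. All ULA vs PS points lie below 0, from -5.23 for Ankrd1 to -0.20 for Yap1, and the OPC vs PS points lie below 0 except for Asap1 (0.46) and Yap1 (0.12).

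In the plot of log2 fold changes, Ankrd1, Ctgf, Amotl2 and Cyr61 stand farthest from 0 in ULA vs PS, followed by Lats2, Ajuba, Tead1, Axl, Asap1 and Yap1. The order differs in the other comparisons, where Cyr61 lies nearer to 0 than Ajuba in OPC vs PS and Ajuba nearer than Asap1 in OPC vs ULA. Among the 3 OPC libraries, the third was the highest in 8 of the 10 genes and in 7 of the 8 targets. It was the highest in 10 of 12 tested genes of the SRF and MRTF list. Among 14 tested genes of a list of further published YAP targets, described below, it was the highest in 7. Over all genes tested, it was the highest in 32.4%. The ratio of the third OPC library to the mean of the other OPC libraries was 1.75 for Ankrd1, 1.41 for Ctgf and 1.39 for Amotl2, and 1.08 for Cyr61, with a median of 1.09 over the 10 genes and 0.989 over all genes. It was also 1.63 for Vgll3, 1.64 for Nov and 1.44 for F3. F3 is one of the 14 further targets, over which the median ratio was 1.02. What set this library apart was not tested. Without it, the OPC vs PS log2FC was -3.53 for Ankrd1, -2.64 for Ctgf and -3.05 for Amotl2, OPC vs ULA was 1.70 for Ankrd1 and 1.18 for Amotl2, and the counts of the 10 genes called were as large in each comparison.

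**Figure D4:**
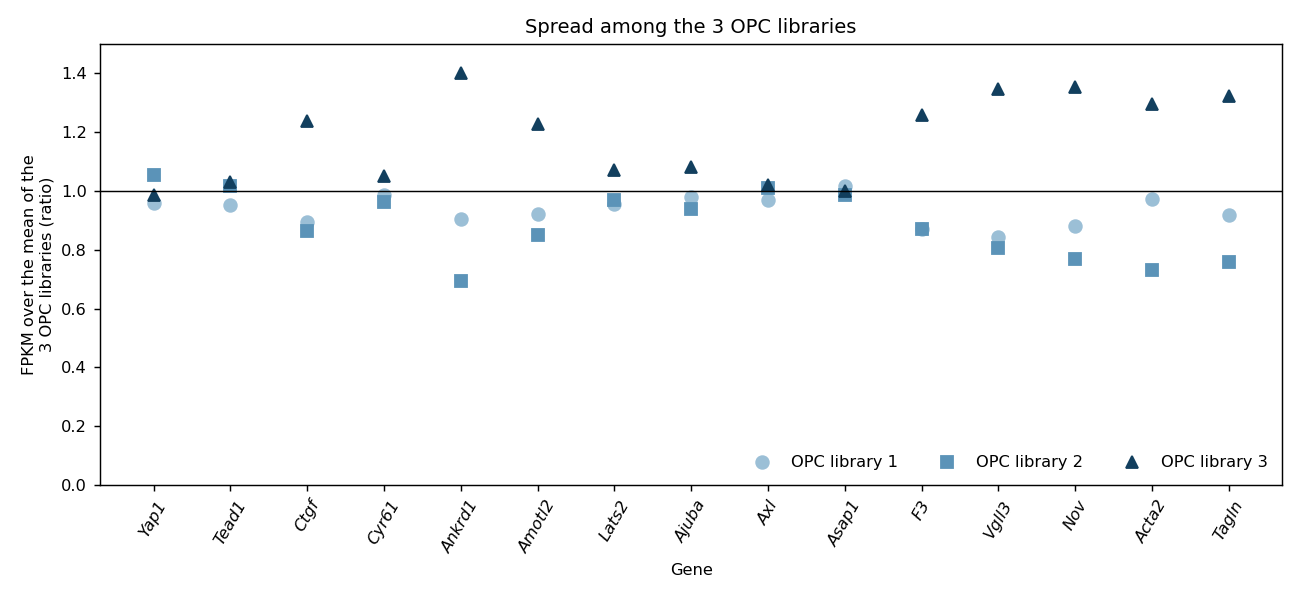
Level of each gene in the 3 OPC libraries divided by their mean (ratio, linear axis from 0, line at 1), for the 10 genes at left and 5 genes with a wide spread at right, chosen after their values were seen. The third OPC library (dark triangles) is the highest for most of them, with Ankrd1 farthest from the other libraries, while the libraries lie close together for Axl and Asap1.

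The plot of the OPC libraries shows this spread gene by gene. Further published targets of YAP that are not among the 10 genes were counted over a list of 15, of which 14 were tested. In ULA vs PS, 9 of the 14 fell, all as DEGs (30.5% of all genes fell, and 7.39% as DEGs), and 5 rose, 2 as DEGs (38.4% of all genes rose, and 8.42% as DEGs), with a median log2FC of -1.37. F3, which encodes tissue factor, the trigger of blood clotting, had 433, 436 and 439 FPKM in the PS libraries, 14.2, 13.0 and 13.2 in the ULA libraries and 41.9, 41.8 and 60.4 in the OPC libraries. The groups were separate, and its log2FC was -4.92 in ULA vs PS (adjusted p = 8.97e-10 from limma) and -3.18 in OPC vs PS (adjusted p = 1.95e-08). Tgfb2, the gene of a TGF-beta ligand, fell from 337 ± 5.43 FPKM to 42.1 ± 1.45 on ULA and 67.4 ± 7.38 on OPC. Ccdc80, which encodes a matrix protein, fell from 1586 ± 4.70 to 238 ± 7.02 and 395 ± 50.6 FPKM, and Crim1, which encodes a transmembrane protein that binds BMPs, from 91.8 ± 3.15 to 10.7 ± 0.665 and 20.6 ± 3.06.

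The targets of this list that rose on ULA encode an IGF-binding protein, a surface enzyme that makes adenosine, a stress-induced growth arrest protein and regulators of small GTPases. Igfbp3 had 20.6, 18.0 and 17.8 FPKM in the PS libraries, 246, 229.5 and 254 in the ULA libraries and 22.2, 24.0 and 23.1 in the OPC libraries. The ULA libraries stood far above the others, and the log2FC was 3.63 in ULA vs PS (adjusted p = 1.44e-10 from limma), 0.29 in OPC vs PS (adjusted p = 0.00247) and -3.34 in OPC vs ULA (adjusted p = 2.61e-09). Nt5e, the gene of the adenosine-making enzyme CD73, rose from 9.24 ± 0.341 to 84.6 ± 1.997 FPKM on ULA and 21.3 ± 0.458 on OPC. Gadd45a had 98.4 ± 2.87, 161.5 ± 4.03 and 135 ± 4.13 FPKM, Dock5 had 7.24 ± 0.499, 13.4 ± 0.564 and 6.81 ± 0.271, and Arhgef17 had 30.2 ± 0.803, 39.0 ± 0.547 and 53.4 ± 3.001. In OPC vs PS, 9 of the 14 fell (23.9% of all genes), 4 rose (40.4%) and 1 did not pass, with a median of -0.77. In OPC vs ULA, 9 rose (32.2% of all genes), 4 fell (21.7%) and 1 did not pass, with a median of 0.55.

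The kinases and adaptors upstream of YAP were counted next. Of 17 genes listed, Wwc1 was too low to be tested and 16 were tested, and Lats2 is among them. In ULA vs PS, 4 rose, 8 fell and 4 did not pass (median log2FC -0.13), in OPC vs PS 6 rose, 6 fell and 4 did not pass (median -0.05), and in OPC vs ULA 8 rose, 1 fell and 7 did not pass (median 0.12). The shares over all genes were 38.4% higher and 30.5% lower in ULA vs PS, 40.4% and 23.9% in OPC vs PS, and 32.2% and 21.7% in OPC vs ULA. On the log2(FPKM + 1) scale, Wwc2, a KIBRA relative that activates LATS, fell most after Lats2 in ULA vs PS (log2FC -2.08 against -2.10). Wwc2 went from 26.0 ± 1.13 FPKM to 5.38 ± 0.241 on ULA and 9.05 ± 0.745 on OPC. In FPKM its ULA mean was 20.7% of the PS mean, against 22.2% for Lats2. The MST kinase gene Stk4 fell from 9.29 ± 0.0674 to 4.97 ± 0.383 and 5.89 ± 0.153 FPKM. Nf2, whose product merlin activates the cascade, rose from 16.6 ± 0.449 to 20.1 ± 0.580 and 24.4 ± 0.355 FPKM. Rassf1, a scaffold of the MST kinases, was high on ULA, with 11.4 ± 0.267, 15.9 ± 0.219 and 11.03 ± 0.552 FPKM.

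Junction and polarity genes that feed into the pathway were counted over 16 tested genes of 18 listed, Amotl2, Ajuba and Ptpn14 among them. Ptpn14 is also on the list of further published YAP targets above, so these counts share a gene. In ULA vs PS 12 fell (30.5% of all genes), 3 rose (38.4%) and 1 did not pass, with a median of -0.42. In OPC vs PS 9 fell (23.9%), 2 rose (40.4%) and 5 did not pass (median -0.22), and in OPC vs ULA 9 rose (32.2%), 1 fell (21.7%) and 6 did not pass (median 0.19). Fat1, which encodes a giant protocadherin, had 262.7 ± 1.29 FPKM on PS, 64.8 ± 1.59 on ULA and 184.8 ± 11.01 on OPC. Fat4 had 5.25 ± 0.350, 1.33 ± 0.0884 and 3.93 ± 0.0244 FPKM. For both protocadherins the OPC group was thus nearer to PS than to ULA. The phosphatase gene Ptpn14, whose product binds YAP, fell from 24.9 ± 0.804 to 8.88 ± 0.690 and 14.5 ± 1.04 FPKM. Dchs1, the gene of the FAT4 ligand, was at 0.0734 ± 0.0254 FPKM on PS and higher at 1.33 ± 0.0637 on ULA and 0.869 ± 0.119 on OPC. It passed the filter through the ULA libraries alone, so its place among the genes that rose in ULA vs PS and fell in OPC vs ULA is no support for either count.

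Genes controlled by SRF and its actin-sensing cofactors MRTF also fell, and YAP and MRTF are known to share some targets. Of 13 genes listed, 12 were tested, and all 12 fell in ULA vs PS (median log2FC -2.72, 30.5% of all genes fell) and in OPC vs PS (median -2.44, 23.9% of all genes fell). In OPC vs ULA, 8 rose (32.2% of all genes), 1 fell (21.7%) and 3 did not pass (median 0.47). Vcl, which encodes the focal adhesion protein vinculin, fell from 128.5 ± 0.763 FPKM to 25.3 ± 0.150 on ULA and 36.9 ± 1.32 on OPC. The actin crosslinker gene Flna fell from 615 ± 2.57 to 116.0 ± 2.99 and 168 ± 7.39 FPKM, Actn1 from 374 ± 3.44 to 56.9 ± 1.82 and 88.6 ± 6.90, and Tpm1 from 211 ± 1.17 to 26.0 ± 1.297 and 32.6 ± 3.63. The smooth muscle actin gene Acta2, named after its values were seen and also counted among the smooth muscle markers, had 2487 ± 39.8, 41.7 ± 1.76 and 94.9 ± 27.0 FPKM. Cnn1, the single gene to fall in OPC vs ULA, had 22.7 ± 0.0793, 0.403 ± 0.123 and 0.125 ± 0.0969 FPKM. It passed the filter through the PS libraries alone. Its place among the 12 genes that fell in ULA vs PS and OPC vs PS is thus no support for either count. Its call in OPC vs ULA compares values under 1 FPKM. That call was lost without the ULA libraries 1 or 3 or the OPC library 2 (adjusted p = 0.0569 to 0.0606 from limma). It was also lost with the 2 groups alone in the fit (adjusted p = 0.117 from limma).

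Of 10 TGF-beta response genes tested, 5 rose (38.4% of all genes) and 5 fell (30.5%) in ULA vs PS, 6 rose (40.4%) and 4 fell (23.9%) in OPC vs PS, and 6 rose (32.2%), 3 fell (21.7%) and 1 did not pass in OPC vs ULA. Postn, which encodes periostin, a matrix protein, rose from 472 ± 4.91 FPKM to 3589 ± 81.5 on ULA and 1760 ± 77.2 on OPC. Tgfbi, also among the genes that rose against PS, had 0.506 ± 0.147, 4.12 ± 0.304 and 2.77 ± 0.726 FPKM. All PS libraries were under 1 FPKM, so it passed the filter through the ULA and OPC libraries. Its place among the genes that rose in ULA vs PS and in OPC vs PS is thus no support for either count.

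The genes whose levels followed 4 of the 10 genes most closely were sought among 8066 tested genes with a mean of at least 5 FPKM. Likeness was the root mean square distance between mean-centred log2(FPKM + 1) values over the 9 libraries, which share the substrate differences, so that it is a description. Nearest to Ctgf were Grb14 (distance 0.171), Amotl2 (0.213) and Cemip (0.215). Grb14, the gene of an adaptor of the insulin receptor, had 217 ± 3.39 FPKM on PS, 13.2 ± 0.357 on ULA and 50.7 ± 8.95 on OPC. Among the nearest to Cyr61 were the collagen-binding integrin gene Itga11 (0.216) and Grb14 (0.310), and nearest to Ankrd1 were F3 (0.167), Vgll3 (0.255) and Arsi (0.280). Yap1, which varied little, was nearest to Gatc (0.0510), Nelfa (0.0540) and Tor2a (0.0540).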

How the data were processed

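RNA-seq libraries of rat CDCs on the PS, ULA and OPC substrates (3 per group) were used. The authors deposited 1 table of values per gene and library, read here as FPKM from the values, since no source names the unit. The study's methods name HISAT2, featureCounts and DESeq2, and the submitters' processing notes HISAT2 2.1 and StringTie 1.3.0 with rn6. The tool behind the deposited values and the use of strand in counting are not given in the sources used here.

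log2(FPKM + 1) was fitted in R 4.3.3 with limma 3.58.1 (trend, 3 groups in 1 fit, 2-sided tests, no further scaling), and the fit was tested on simulated data. The design foresaw limma for normalized values. Alternatives were a pseudocount of 0.1, no filter, upper-quartile rescaling, no trend, the 2 groups alone, a replicate block, an unadjusted p and leaving out each library. The 10 genes and all lists were chosen with earlier results of these data known. Named were the 10 genes, their families, of each other list up to 4 genes of lowest adjusted p that moved the way most did and up to 3 that moved the opposite way, and the 3 genes most like each of Ctgf, Cyr61, Ankrd1 and Yap1. Acta2 and Postn were named after their values were seen, and some genes that the rule would name are not reported here. Promoter windows came from RefSeq (GRCr8). Protein identity within families was not analysed here.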

Additional observations from a re-analysis of the deposited data

Results flagged for a closer look

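Opposite directions against PS were found for 6 of the genes listed, each with every ULA library below and every OPC library above the PS libraries. Such genes made up 2.61% of all genes tested. The total of the genes listed, some of which are on several lists, is not given here, so the 6 cannot be set beside that share. A place of ULA below PS and OPC above PS puts OPC above ULA, so the differences between OPC and ULA are given as a description, with no test. The OPC vs ULA log2FC was 1.26 for Asap1, 0.82 for the AXL ligand gene Gas6 and 0.51 for the receptor gene Tyro3. It was 0.64 for the NDR kinase gene Stk38, 0.52 for the MST-activating kinase gene Taok3 and 0.53 for Ltbp2, which encodes a matrix protein of the latent TGF-beta binding family. The OPC vs PS rise of Ltbp2 was lost after upper-quartile rescaling (log2FC 0.08, adjusted p = 0.0761 from limma), and the ULA vs PS fall of Tyro3 was lost when any PS library or the ULA libraries 1 or 3 were left out in turn and with no filter on low values (adjusted p = 0.0507 to 0.0856 from limma).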

How the results depend on the processing

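Of the 10 genes, 9 kept their direction and their call under every alternative in each comparison, and the exception was Yap1. Its ULA vs PS call was lost without 4 of the single libraries, and its OPC vs PS difference passed without the PS library 2. The count higher in OPC vs PS was then 2 in place of 1 (1 to 2 over the libraries left out). The count of DEGs that fell in OPC vs PS was 6. It became 7 with a pseudocount of 0.1, after upper-quartile rescaling, and without the PS library 1 or the OPC library 3. Tead1 stood just short of the fold limit in that comparison (log2FC -0.99). For the Hippo kinases and adaptors, the count lower in OPC vs ULA was 1 and became 2 after upper-quartile rescaling and with an unadjusted p (1 to 2 over the libraries left out). For the junction genes, the count lower in OPC vs ULA was 1 (Dchs1) and became 0 with a pseudocount of 0.1 and 2 after upper-quartile rescaling and with an unadjusted p (0 to 2 over the libraries left out). The cause of these shifts was not tested. Deviations from the group means were correlated between libraries of different groups. The correlations were -0.0394 to 0.0542 for the same replicate number and -0.054 to 0.0426 for different numbers. Whether same-numbered cultures had a common origin is not stated, and these correlations cannot decide it. With the replicate block, 10 genes fell in ULA vs PS and 8 in OPC vs PS as without it, and the count of junction genes lower in OPC vs ULA was 0. The absolute depth is unknown, so values under 1 FPKM, such as those of Ankrd1 on ULA, have no counting error, and a fold against them is loosely set.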
